A study of Mus musculus with 6 samples.

Results

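The activin, inhibin and follistatin genes were read as a group of 9 genes: Inhba, Inhbb and Inha for the subunits, Fst and Fstl3 for the binding proteins, and Acvr1b, Acvr1c, Acvr2a and Acvr2b for the receptors. They were chosen by gene symbol, and each matched 1 of the 22206 transcript clusters tested on Affymetrix arrays. RNA came from Müllerian ducts, the embryonic tubes from which oviducts, uterus and upper vagina form, of 6 mouse embryos at E17.5. The 3 mutant embryos carried Lats1f/f, Lats2f/f and Amhr2cre/+, and the 3 control embryos carried Lats1f/f and Lats2f/f without Cre, so the floxed alleles were common to both groups. Lats1 and Lats2 encode kinases of the Hippo pathway that restrain the coactivators YAP and TAZ. Cre is driven from the locus of Amhr2, which in this tissue is expressed by the mesenchyme around the duct, while the dissected duct also holds epithelium, vessels and immune cells. Besides the recombined Lats alleles, the mutants thus have 1 Amhr2 allele that carries Cre, which controls lack.

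Activins and inhibins are secreted dimers of the TGF-beta superfamily. Activin A is a homodimer of the beta A subunit encoded by Inhba, activin B is a homodimer of the beta B subunit encoded by Inhbb, and inhibins pair a beta subunit with the alpha subunit encoded by Inha. Activins bind a type II receptor (Acvr2a or Acvr2b), which recruits a type I receptor (Acvr1b, and for activin B also Acvr1c), and the complex phosphorylates SMAD2 and SMAD3. Follistatin (Fst) and follistatin-like 3 (Fstl3) bind activin and keep it from its receptors, and inhibin competes for the type II receptors.

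Of the 9 genes, 3 rose in mutant ducts and none fell at an adjusted p of 0.05 (limma, Benjamini-Hochberg over all 22206 transcript clusters). Over all transcript clusters 2.59% rose, 0.666% fell and 3.26% were called in either direction. The 3 were Inhba and both binding proteins. At an unadjusted p of 0.05, 4 of the 9 passed, against 15.3% of all transcript clusters. The arrays of the genotypes did not overlap for 4 of the 9, the fourth being Acvr2a, where 21.1% of all transcript clusters did not overlap in either direction and 10.9% were higher on every mutant array. The median log2 fold change of the 9 genes was 0.33, against -0.01 over all transcript clusters.

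The arrays are bulk measurements, so more cells of a type and more RNA per cell cannot be told apart in any value given here. Array medians lay between 6.87 and 6.95 on the log2 scale. The median of the 23 background probe sets, between 5.35 and 5.88, served as each array's background level, and the 95th percentile of the same probe sets lay between 7.23 and 7.58. Control 3 carried high signals of smooth muscle and urothelial markers: its mean log2 signal over 4 urothelial genes was 11.20, against 4.83 to 4.94 on the mutant arrays and 4.36 on the lowest control array. The results for the 9 genes are therefore also given without it. Of the targeted genes, neither passed the test: the log2 fold changes were -0.78 for Lats1 and 0.22 for Lats2 (adjusted p = 0.0958 and 0.684). Whether their probe sets cover the floxed exons is not known here, and a check of the deletion would need that. The 8 Müllerian mesenchyme markers measured were all above background on at least 1 array. Their mean log2 signal was 11.05 to 11.52 on mutant arrays and 12.01 to 12.24 on control arrays. Of the 8, 2 fell, Amhr2 by 3.73 and Hoxd10 by 1.56, and none rose, beside 0.666% and 2.59% of all transcript clusters. On 2 mutant arrays Amhr2 was below the 95th percentile of the background probe sets, so the size of its fall is imprecise. Amhr2 is also the locus that carries Cre in mutants only, and the part of this in its fall was not tested. Wnt4 had the opposite sign with 1.00, higher on every mutant array (limma adjusted p = 0.0530), and Wnt5a had 0.14. Hoxa11 had -1.09 and Tcf21 -0.31, both lower on every mutant array (limma adjusted p = 0.0557 and 0.459). Hoxa10 had -0.75 and Osr2 -0.69 with groups that overlapped, and none of these passed.

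The promoter stretches of Inhba and Fstl3 are shown because these genes rose together and have an entry in the RefSeq promoter table (GRCm38.p6), which was matched to 8 of the 9 genes, all but Fst. Each is the 250 bases before the annotated transcription start on the plus strand, chr13:16011601-16011850 for Inhba and chr10:79777024-79777273 for Fstl3. The start used for Inhba lies inside its RefSeq gene span, which begins further upstream. Capitals mark matches on either strand to the TATA box letters TATAAA and to the SMAD-binding letters CAGAC.
Inhba: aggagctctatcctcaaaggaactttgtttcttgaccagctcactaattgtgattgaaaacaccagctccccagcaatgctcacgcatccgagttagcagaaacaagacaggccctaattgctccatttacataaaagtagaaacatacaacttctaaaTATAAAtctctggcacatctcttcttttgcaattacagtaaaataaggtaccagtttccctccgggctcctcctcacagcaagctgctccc
Fstl3: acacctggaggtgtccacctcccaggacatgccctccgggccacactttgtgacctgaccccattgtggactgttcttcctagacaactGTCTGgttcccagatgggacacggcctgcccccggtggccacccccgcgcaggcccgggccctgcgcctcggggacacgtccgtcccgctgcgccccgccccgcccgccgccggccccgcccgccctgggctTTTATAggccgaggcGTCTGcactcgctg
TATAAA was found once in each, its leftmost base at position -91 from the start in Inhba and at -29 in Fstl3 (as TTTATA on the printed strand), and 12.4% of all 32851 windows of this length hold it. CAGAC was found at 2 places in Fstl3 and at none in Inhba, and 42.2% of all windows hold it. The TEAD letters GGAATG (12.6% of all windows), the AP-1 letters TGANTCA (6.75%), the cyclic AMP response element TGACGTCA (1.55%) and the SMAD palindrome GTCTAGAC (0.167%) had no match in the 9 windows of the 8 genes. The base composition of the stretches differed, with 43.2% G and C in Inhba and 71.2% in Fstl3. None of the marked matches overlapped another, and a match of letters is a description of the sequence.

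Inhba, the activin beta A subunit, had the smallest p-value of all 22206 transcript clusters in the comparison of genotypes. Its log2 signal was 13.64, 13.56 and 13.35 on the mutant arrays, against 9.40, 9.15 and 9.32 on the control arrays. Every mutant array lay far above every control array, and the 3 arrays of each genotype lay close together. The means were 13.52 ± 0.15 in mutant and 9.29 ± 0.13 in control ducts (SD, n = 3 each). The log2 fold change of 4.22 ± 0.17 (SE) corresponds to an 18.7-fold higher signal, with a 95% interval from 14.4-fold to 24.2-fold (limma adjusted p = 1.61e-05). By size of rise it ranked 6 among all transcript clusters. All 6 values were above the 95th percentile of the background probe sets, so the size of this rise does not rest on a signal at background.

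Inhbb, the activin beta B subunit, did not pass the test. Its log2 signal was 7.04, 6.42 and 6.57 on the mutant arrays, against 6.24, 6.45 and 6.37 on the control arrays. The groups overlapped, with mutant 1 the highest array. All 6 values lay above the background median of their array and below the 95th percentile of its background probe sets, so a change of Inhbb would be hard to measure here. The log2 fold change was 0.33 ± 0.20 (SE), with a 95% interval from -0.12 to 0.77 (limma adjusted p = 0.498).

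Inha, the alpha subunit that turns a beta subunit into inhibin, was the subunit with a negative value. It was at 8.12, 7.97 and 8.24 in mutant ducts, against 8.57, 8.10 and 8.77 in control ducts. Control 2 lay within the range of the mutant arrays, so the groups overlapped. The log2 fold change was -0.37 ± 0.20 (SE), with a 95% interval from -0.83 to 0.09 (limma adjusted p = 0.449). The signal was above the 95th percentile of the background probe sets on all 6 arrays, and the interval does not reach a 2-fold fall.

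**Figure D1:**
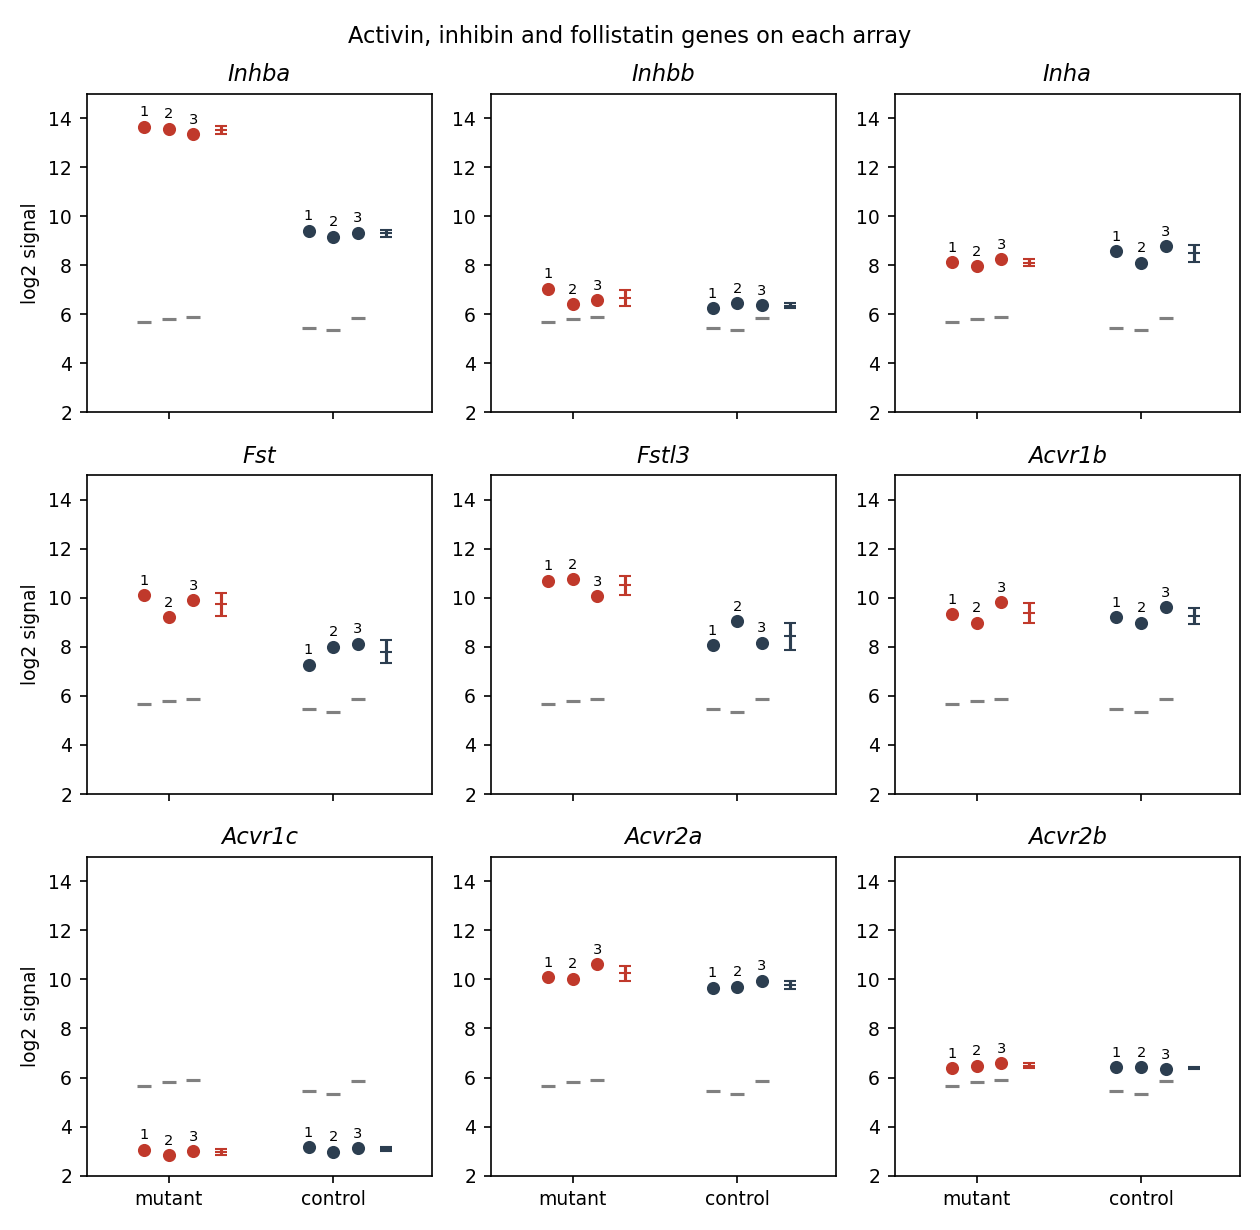
Log2 signal of the 9 genes on each array, mutant left of control in each panel; numbers are replicate numbers, the bar beside each group is its mean and SD (n = 3), and grey dashes are the median of the background probe sets on that array. Inhba lies between 13.35 and 13.64 in mutant and between 9.15 and 9.40 in control ducts, Fst and Fstl3 are higher on every mutant array, and Acvr1c lies below background throughout.

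Both activin-binding proteins rose by similar amounts. Fst, which encodes follistatin, was at 10.10, 9.20 and 9.89 in mutant ducts, against 7.27, 8.00 and 8.12 in control ducts. The groups did not overlap, and the closest arrays were mutant 2 and control 3. In control 1 the signal was below the 95th percentile of the background probe sets, though above their median. The log2 fold change was 1.94 ± 0.29 (SE), a 3.83-fold higher signal with a 95% interval from 2.43-fold to 6.04-fold (limma adjusted p = 0.00714).

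Fstl3, a secreted relative of follistatin that binds the same ligands, was at 10.69, 10.76 and 10.06 in mutant ducts, against 8.06, 9.04 and 8.17 in control ducts. The groups did not overlap, with control 2 the highest control array and mutant 3 the lowest mutant array. The log2 fold change was 2.08 ± 0.29 (SE), a 4.22-fold higher signal with a 95% interval from 2.67-fold to 6.67-fold (limma adjusted p = 0.00509). Among mutants, array 2 was lowest for Fst and highest for Fstl3, while control 1 was the lowest control array for both genes. Among all rises, Fstl3 ranked 95 and Fst ranked 114 by size.

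None of the 4 receptor genes passed the test, and their 95% intervals all lay between -0.49 and 0.92. Acvr2a, a type II receptor that binds activin, came closest. It was at 10.09, 10.03 and 10.61 in mutant ducts, against 9.67, 9.71 and 9.95 in control ducts, so every mutant array was higher by a small margin. Its log2 fold change was 0.47 ± 0.20 (SE), with a 95% interval from 0.01 to 0.92, an unadjusted p of 0.0444 and a limma adjusted p of 0.310.

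Acvr2b, the other type II receptor, was at 6.39, 6.48 and 6.60 in mutant ducts, against 6.42, 6.42 and 6.34 in control ducts. The groups overlapped, and all values lay between the median and the 95th percentile of the background probe sets, as for Inhbb. The log2 fold change was 0.09 ± 0.16 (SE), with a 95% interval from -0.25 to 0.44 (limma adjusted p = 0.836).

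Acvr1b, the type I receptor ALK4 that passes on activin signals, was at 9.34, 8.98 and 9.82 in mutant ducts, against 9.21, 8.98 and 9.61 in control ducts. The groups overlapped almost completely, and the log2 fold change was 0.11 ± 0.25 (SE), with a 95% interval from -0.45 to 0.68 (limma adjusted p = 0.886). Its sign turned without mutant 3 (-0.11) or control 2 (-0.03). Acvr1c, the type I receptor ALK7, was at 3.06, 2.82 and 2.99 in mutant ducts, against 3.16, 2.98 and 3.11 in control ducts. All 6 values were below background, and its log2 fold change was -0.13 ± 0.16 (SE; limma adjusted p = 0.774), which says nothing of a transcript that the array did not register.

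**Figure D2:**
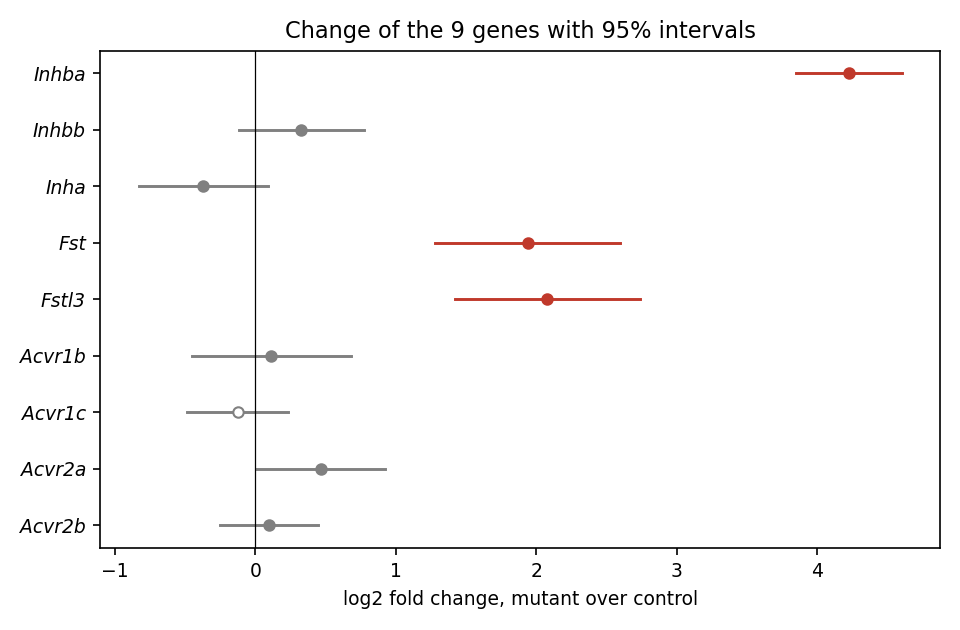
Log2 fold change of mutant over control for the 9 genes, with 95% limma intervals (3 arrays per genotype); red marks genes that rose at an adjusted p of 0.05, grey those that did not pass, and the open circle a gene below background on all 6 arrays. The intervals of Inhba, Fst and Fstl3 lie above 1, and those of the other 6 genes lie between -1 and 1.

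The change of Inhba was then set against that of its partners within each array, to compare the sizes of the changes. The genes were chosen with earlier results of these data known. A shift against Inha and Inhbb, which did not pass, follows from the rise of Inhba itself. The log2 difference between Inhba and Fst was 3.78 ± 0.50 on mutant arrays and 1.50 ± 0.55 on control arrays (SD, n = 3 each), so Inhba rose by 2.29 more than Fst, or 4.88-fold more. The difference between Inhba and Inha was 5.41 ± 0.26 on mutant and 0.81 ± 0.25 on control arrays, a shift of 4.59. The difference between Inhba and Inhbb was 6.84 ± 0.27 on mutant and 2.94 ± 0.23 on control arrays, a shift of 3.90. Inhbb was below the 95th percentile of the background probe sets on every array, so this shift says little of a change of Inhbb. The genotypes did not overlap in any of the 3 differences. Each had a two-sided exact permutation p of 0.1, which is the smallest that 3 arrays against 3 allow, and 0.1 after adjustment over the 3 pairs, so none of them could pass. Against Fstl3, a pair chosen after its values were seen and not tested, the shift was 2.15. Between Fst and Fstl3 it was -0.14, with ranges of -1.56 to -0.16 on mutant and -1.04 to -0.04 on control arrays that overlapped. These differences compare changes, since the signals of different probe sets are not on a common scale.

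**Figure D3:**
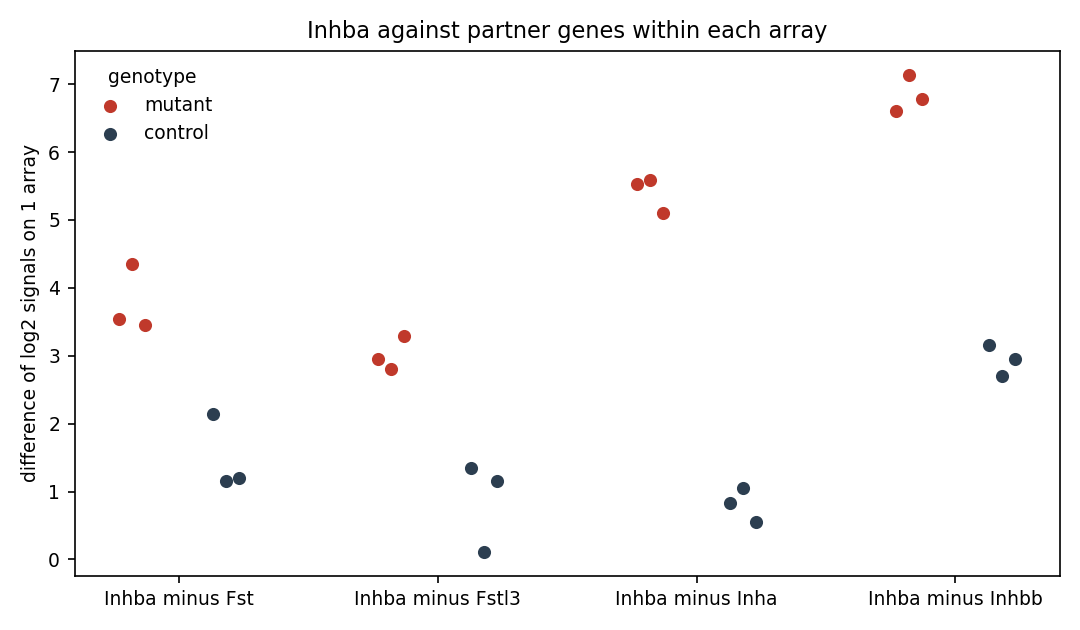
Difference of log2 signals between Inhba and each of 4 partner genes on the same array, for mutant (red) and control (dark) ducts, 3 arrays each. All mutant points lie above all control points for every pair, for Fst between 3.46 and 4.36 in mutant and between 1.15 and 2.13 in control ducts.

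Other genes of activin signalling were read from a list of 29, of which 27 had a transcript cluster. Of these, 1 rose and 1 fell, beside 2.59% and 0.666% of all transcript clusters, which for counts this small is no result about the list. Their median log2 fold change was 0.07, and 8 of the 27 lay below background on every array. The gene that rose was Pcsk6, a convertase of the furin family that cleaves propeptides of TGF-beta superfamily ligands. It was at 10.54, 10.69 and 10.10 in mutant ducts, against 8.82, 8.49 and 8.65 in control ducts, with a log2 fold change of 1.79 ± 0.20 (SE; limma adjusted p = 0.00141). The other convertases did not pass: Furin had a log2 fold change of 0.07 and Pcsk5 of 0.21.

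Gdf11, a ligand that shares the activin type II receptors, was the gene that fell. It was at 7.33, 7.56 and 7.56 in mutant ducts, against 8.37, 8.37 and 8.15 in control ducts, and the groups did not overlap. Its log2 fold change was -0.81 ± 0.16 (SE; limma adjusted p = 0.0298). Leaving out any 1 array other than control 3 ended this call, 5 of the 6 such fits, with adjusted p up to 0.126, and so did the replicate number as a block. The other ligands Inhbc, Inhbe, Mstn and Nodal were below background on every array.

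Of the other receptors and co-receptors none of 7 passed. Acvr1 (ALK2), a type I receptor of BMPs that activin A can also engage, was higher on every mutant array with 0.51 ± 0.18 (SE; limma adjusted p = 0.189). Igsf1, an immunoglobulin superfamily membrane protein, was lower on every mutant array with -0.55 ± 0.19 (adjusted p = 0.191), but its signal was below the 95th percentile of the background probe sets on all arrays and below their median on the 3 mutant arrays. Tgfbr3, the inhibin co-receptor betaglycan, was at -0.44 on the log2 fold change scale (adjusted p = 0.378). The transducers Smad2, Smad3 and Smad4 lay between -0.14 and 0.30, and the feedback inhibitor Smad7 had 0.56 ± 0.21 (SE; limma adjusted p = 0.239). None of 7 other binding proteins passed. The follistatin-like genes pointed both ways: Fstl4 was higher on every mutant array with 0.59 ± 0.19 (SE; limma adjusted p = 0.167) and Fstl5 lower on every mutant array with -0.56 ± 0.21 (adjusted p = 0.239), while Fstl1 had 0.56 with groups that overlapped (adjusted p = 0.311). Fstl5 was below background on all 6 arrays and Fstl4 on 5 of them.

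Genes known to respond to SMAD2 and SMAD3 were read for 12 genes with a transcript cluster. Of these, 7 rose and none fell, beside 2.59% and 0.666% of all transcript clusters. Their median log2 fold change was 1.27, against -0.01 over all transcript clusters. The list was drawn up with earlier results of these data known, and several of its genes also respond to YAP and TAZ, hypoxia or p53, so its count does not single out activin signalling. Skil, a corepressor of SMADs, was at 12.92, 12.52 and 12.96 in mutant ducts, against 11.23, 11.10 and 11.06 in control ducts. Pmepa1, a membrane protein that dampens SMAD signalling, was at 12.12, 12.30 and 12.26 in mutant ducts, against 10.76, 10.91 and 10.83 in control ducts. The arrays of each genotype lay close together for both genes, and neither pair of groups overlapped.

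Of the other rises, Bhlhe40, a circadian repressor, had a log2 fold change of 3.77 ± 0.19 (SE) and the matricellular Ccn2, a classical target of YAP and TAZ, of 3.76 ± 0.22. The cell cycle inhibitor Cdkn1a rose by 2.00 ± 0.31 and its relative Cdkn2b by 1.15 ± 0.21, a call that did not hold without mutant 2, mutant 3 or control 1 (adjusted p up to 0.0784). Cdkn2b was below background on 2 control arrays and below the 95th percentile of the background probe sets on all 6, so the size of its rise is imprecise. Ltbp2, a microfibril protein, rose by 1.74 ± 0.20 from a signal below background on every control array, and it was below background on 2 mutant arrays too. Tgfbi, a matrix protein induced by TGF-beta, had the opposite sign with -1.06 ± 0.27 and did not pass (limma adjusted p = 0.0831), although it was lower on every mutant array.

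**Figure D4:**
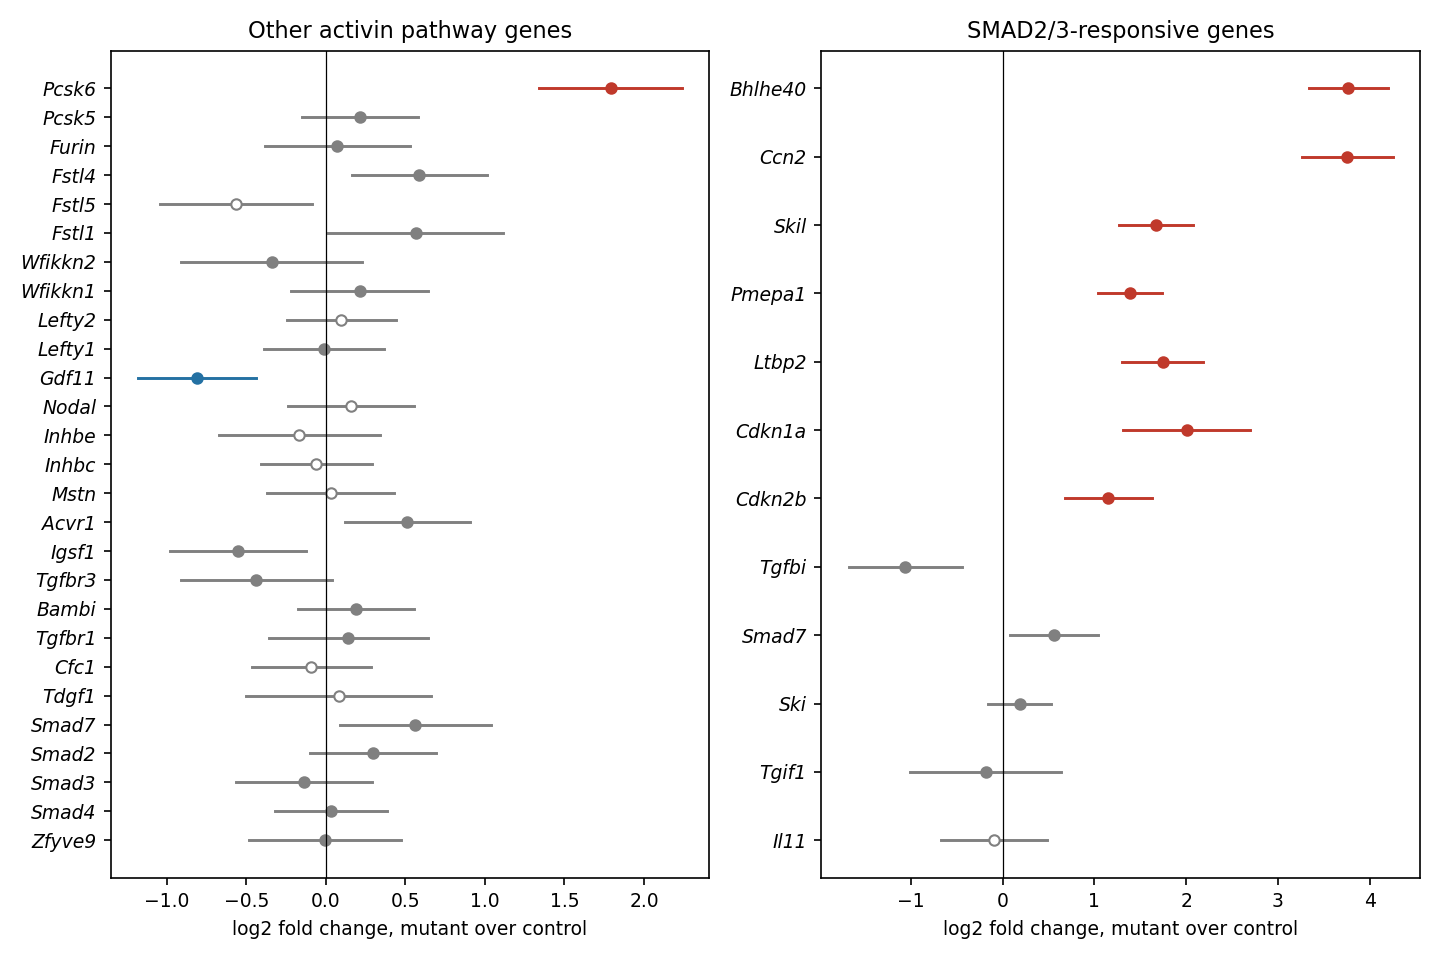
Log2 fold change of mutant over control with 95% limma intervals (3 arrays per genotype) for 27 other activin pathway genes and 12 SMAD2/3-responsive genes; red rose and blue fell at an adjusted p of 0.05, grey did not pass, and open circles are genes below background on all 6 arrays. The activin pathway panel has 1 red and 1 blue gene (Pcsk6 and Gdf11), and the responsive panel has 7 red genes; Smad7 stands in both panels.

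The signals most like Inhba over the 6 arrays, among 4259 rows of named genes with a range of at least 1, were those of F2r, Mamdc2, Bhlhe40 and Anxa2, with Pearson correlations from 0.9969 to 0.9975. F2r, a thrombin receptor, rose by 2.18 ± 0.15 (SE), Mamdc2 by 3.05 ± 0.18 and Anxa2, a calcium-dependent membrane-binding protein, by 1.38 ± 0.16. For Fst they were F11r (0.9940), Serpina3n (0.9918), Krt14 (0.9864) and Tbxa2r (0.9862). Over 6 arrays of 2 genotypes such values are set mainly by the difference between genotypes. By deviations from the genotype means, the genes most like Inhba were Syt14, Ak7, Ehd3 and Tmem121b, and those most like Fst were F11r, Slc40a1, Cfap74 and Zc2hc1c, with correlations from 0.9816 to 0.9983. Ak7 and Tmem121b lay below background on all 6 arrays, where the array registers little of a transcript. F11r, a tight junction adhesion protein, was named for Fst by both measures, which share the same array values and are not independent. Over 6 arrays the highest of 4259 correlations can be large by selection alone, and none of them was tested.

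Markers of other cells were read beside these changes. For the counts below, 2.59% of all transcript clusters rose and 0.666% fell. Of 9 macrophage markers measured, 8 rose and none fell, all but Mrc1 having risen, by 1.07 (Aif1) to 1.63 (C1qc), with a mean log2 signal of 10.04 to 10.27 on mutant and 8.81 to 8.89 on control arrays. Of 14 immediate early and stress genes, 5 rose and none fell, with means of 9.28 to 9.35 on mutant and 8.03 to 8.52 on control arrays. Of 6 smooth muscle markers, only Tagln passed, with a rise of 2.92 ± 0.30 (SE, limma adjusted p = 0.00108). Acta2 was higher on every mutant array with 2.00 ± 0.69 (limma adjusted p = 0.191), and Cnn1 had 1.39 with groups that overlapped. Negative values were those of Actg2 (-2.16) and Myh11 (-1.21), with groups that overlapped, and of Des (-0.31), lower on every mutant array. The list's means were 11.35 to 11.80 on mutant and 9.22 to 13.30 on control arrays. Of 6 endothelial markers Kdr rose by 1.10, with list means of 11.45 to 11.81 on mutant and 11.58 to 11.65 on control arrays. Pecam1, Cdh5, Tek and Tie1 had values between -0.28 and -0.07 and Emcn had 0.12, and none of these passed. Of 5 mesothelial markers Msln rose by 1.48, with list means of 10.89 to 11.06 on mutant and 10.64 to 11.38 on control arrays. Msln was below the 95th percentile of the background probe sets on all 3 control arrays and 1 mutant array. The size of its rise is therefore imprecise. Upk3b had -0.19, lower on every mutant array. With groups that overlapped, Wt1 had -0.25 and Krt19 had 0.04. Upk1b also overlapped and had the lower mean in mutants, 10.48 against 11.48 on control arrays. None of these passed. Of 7 Müllerian epithelium markers only Lhx1 was called, higher at a signal below background on every array. The means of this list were 8.43 to 9.24 on mutant and 8.67 to 9.21 on control arrays. Emx2 had -0.71, lower on every mutant array. With groups that overlapped, Cdh1, Wnt7a and Pax8 had -0.51, -0.27 and -0.10, and Krt8 and Epcam had 0.47 and 0.35. None of these lists had a member that fell. The part of any of these cells or signals in the rises of Inhba, Fst and Fstl3 was not tested. The median log2 fold change of the macrophage markers was 1.27. Of 8 markers of ovary and granulosa cells, a classical source of inhibin subunits and follistatin, 6 lay below background on every array. Among them were Foxl2, Amh and Fshr. Gdf9 lay above the background median on all 6 arrays, and Nr5a1 on all 3 control arrays but below it on 2 mutant arrays. Both were below the 95th percentile of the background probe sets on every array. Nr5a1 had a log2 fold change of -1.01 (limma adjusted p = 0.260), and none of the 8 passed. The list's mean log2 signal was 4.29 to 4.96 on mutant and 4.44 to 4.60 on control arrays. The 4 pituitary gonadotroph markers all lay below background. Of 6 Sertoli and Leydig cell markers 3 did, and none passed.

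Without control 3, whose smooth muscle and urothelial signals stood apart, the log2 fold change was 4.24 for Inhba (adjusted p = 5.36e-05), 2.10 for Fst (adjusted p = 0.00867) and 1.95 for Fstl3 (adjusted p = 0.0140), each by limma with 3 mutant and 2 control arrays. These 3 calls also held when any other array was left out, with adjusted p of at most 0.000242 for Inhba, 0.0349 for Fst and 0.0271 for Fstl3. The other 6 genes did not pass without control 3.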

How the data were processed

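The deposited file holds the authors' log2 signals, 1 column for each array, and the submitters' processing notes name Transcriptome Analysis Console 4.0. How probes were summarised and normalized is not known here. The values were used as deposited. Of 28846 rows, the 22206 transcript clusters were tested and control rows left out. The platform annotation gave a symbol for 19572 rows. The labels call the samples biological replicates and groups follow their titles.

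A linear model with a genotype term was fitted to each row in limma 3.58.1 (R 4.3.3; lmFit, then eBayes), and tests were two-sided. P-values were adjusted by Benjamini-Hochberg over all tested rows at a threshold of 0.05. Fold changes are differences of group means on the log2 scale, and 95% intervals use limma's moderated spread and are not adjusted. On simulated data of 22206 rows, with normal noise at each row's own spread, 100 rows were given a log2 change of 1 and 100 of 2. The fit recovered 44% and 90% of these, and 5 unchanged rows were called. In the real data 3.26% of rows were called, a larger share than was changed here, so these percentages need not carry over. The number of arrays limits the precision.

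The 9 genes and all lists were chosen with earlier results of these data known. The immediate early and stress list was added after the files were read. Of the other activin pathway genes and the SMAD2/3-responsive genes, every gene past the threshold and up to 4 others with the smallest p are named, and the genes most like Inhba and Fst are the 4 with the highest correlation. Genes outside these rules were picked with their values in view. Replicate numbers are shared between genotypes, and same-numbered arrays did not deviate together (correlations of 0.01, 0.04 and -0.003), so no block was used. Alternatives were quantile normalization, a common median, 2 filters on dim rows, a floor at background, a trended and robust prior, array weights, a replicate block, rows with 1 symbol, and each array left out. Plots were made in Python 3.11.15 with matplotlib 3.10.9.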

Additional observations from a re-analysis of the deposited data

How the results depend on the processing

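The rises of Inhba, Fst and Fstl3 kept their direction and their side of the threshold under all 9 alternatives other than leaving out arrays, and in all 6 fits without 1 array, where the log2 fold change lay between 4.16 and 4.31 for Inhba, 1.67 and 2.20 for Fst, and 1.90 and 2.39 for Fstl3. With the replicate number as a block the adjusted p was 0.000135 for Inhba, 0.0158 for Fst and 0.00373 for Fstl3, the numbers being shared names without shared deviations, and the block left 633 transcript clusters called, 0 falls among the other activin pathway genes, and no other call on the 9 genes changed. Inhbb, Inha, Acvr2a, Acvr2b, Acvr1b and Acvr1c passed under no alternative in which they were tested. The filters on dim rows left out Acvr1c, and the stricter one also Inhbb and Acvr2b, so these have no value there. Acvr1b turned to -0.11 without mutant 3 and -0.03 without control 2, and lay between -0.11 and 0.31 over the fits that left out 1 array. Acvr1c turned to 0.23 with values floored at background, where every one of its values is the floor itself.

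Over all transcript clusters, 723 were called, 575 rises and 148 falls. Leaving out 1 array gave between 360 and 697 calls, 305 to 565 rises and 55 to 132 falls. Calls numbered 360 without mutant 1, 384 without control 1 and 454 without control 2. The floor gave 1396 calls, with 929 rises and 467 falls. Falls were 257 without rows under the median signal and 243 with the trended and robust prior. Falls among the other activin pathway genes were between 0 and 1 in the fits without 1 array. The SMAD2/3-responsive genes had 1 fall without rows under the median signal and 1 with the floor. The cause of these shifts was not tested. Signals near background limit what can be said of Inhbb, Acvr2b and Acvr1c.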
